A study of Homo sapiens with 4 samples.

Results

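The genes described here are 39 genes of interferon signalling and RNA sensing, of 25027 gene symbols quantified in RPE1 cells. They were chosen by name, as 8 sensors of foreign nucleic acid, 5 transcription factors and 26 effectors, of which 23 act against viruses and 3 serve antigen presentation. RPE1, a telomerase-immortalised human line from retinal pigment epithelium, was sequenced after transfection with 10 nM of a negative control siRNA or of 1 Stealth siRNA against SAF-A. SAF-A, the product of HNRNPU, is a nuclear matrix protein with domains for RNA and for DNA. The 4 groups were control siRNA and SAF-A siRNA, each taken 24 h after transfection, and the same pair taken after 48 h. All 4 groups received lipid and siRNA, no untransfected library is used here, and each group is 1 library. There are therefore no replicates and no p-values, and an effect of the siRNA or of time cannot be told apart from a difference between single libraries.

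In the innate response of non-immune cells, RNA in the cytoplasm is recognised by helicases such as RIG-I and MDA5, which signal through kinases to IRF transcription factors and switch on type I interferon genes. Secreted interferon binds its receptor, the kinases JAK1 and TYK2 activate STAT proteins, and STAT2 and IRF9 are subunits of the transcription factor ISGF3. ISGF3 binds the interferon-stimulated response element (ISRE) in promoters of interferon-stimulated genes, and the gamma-activated site (GAS) is another element found in such promoters. The sensors, STAT2 and IRF9 are themselves interferon-stimulated, so the pathway raises its own components.

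Letters of the ISRE were common in the promoters of the effectors, and stretches from members described further below are printed to show where they lie. Promoter windows of 250 bases before to 50 bases after the RefSeq start (GRCh38.p14) were found for 31 of the 39 members, as 40 windows. They were searched on both strands for a core of the ISRE, GAAA, any 2 bases and GAAA again, where overlapping matches were allowed. The core was present in 28 of the 40 windows (70.0%) against 1255 of all 35116 windows (3.57%). In the stretches that follow, which all end before the annotated start and are written on the strand of the gene, capitals mark each match of that core or of its reverse complement.
ISG15 (chr1:1013364-1013419, plus strand): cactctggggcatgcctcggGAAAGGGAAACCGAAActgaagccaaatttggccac
OAS3 (chr12:112938311-112938473, plus strand): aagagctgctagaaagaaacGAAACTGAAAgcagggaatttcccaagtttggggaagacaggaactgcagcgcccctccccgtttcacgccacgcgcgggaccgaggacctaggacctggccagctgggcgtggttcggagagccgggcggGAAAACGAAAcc
IFIT3 (chr10:89327821-89327904, plus strand): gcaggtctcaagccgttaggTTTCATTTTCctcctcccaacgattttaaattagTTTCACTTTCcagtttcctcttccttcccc
IFIT5 (chr10:89414503-89414567, plus strand): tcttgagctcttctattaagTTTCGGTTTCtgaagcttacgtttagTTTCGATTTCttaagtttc
IFI6 (chr1:27672256-27672368, minus strand): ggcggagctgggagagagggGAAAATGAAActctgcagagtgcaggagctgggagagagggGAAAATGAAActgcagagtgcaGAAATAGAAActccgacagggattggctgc
IFI44 (chr1:78649751-78649788, plus strand): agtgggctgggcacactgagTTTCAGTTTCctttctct
IFI44L (chr1:78620264-78620404, plus strand): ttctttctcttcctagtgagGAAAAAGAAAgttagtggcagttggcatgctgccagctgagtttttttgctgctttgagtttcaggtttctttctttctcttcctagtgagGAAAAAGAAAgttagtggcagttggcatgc
DDX60 (chr4:168318776-168318860, minus strand): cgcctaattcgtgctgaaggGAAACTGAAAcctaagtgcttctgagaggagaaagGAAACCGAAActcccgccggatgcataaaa
PARP14 (chr3:122680790-122680838, plus strand): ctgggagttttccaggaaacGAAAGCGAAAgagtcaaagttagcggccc
B2M (chr15:44711353-44711408, plus strand): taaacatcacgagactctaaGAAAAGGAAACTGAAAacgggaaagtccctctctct
Within these stretches, which do not hold every match of a window, the matches began from 12 bases before the start in OAS3 to 164 bases before it in IFI44L. By class, 4 of 6 sensors, 0 of 3 transcription factors, 17 of 19 antiviral effectors and all 3 antigen presentation genes with a window had the core.

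No window of a transcription factor gene held that ISRE core, but 2 of 3 held letters of the GAS. The GAS core TTCNNNGAA, searched on both strands, was in 15 of 40 member windows (37.5%) against 7.66% of all windows, and it was in the windows of IRF1 and IRF9, shown here with the match in capitals.
IRF1 (chr5:132490874-132490912, minus strand): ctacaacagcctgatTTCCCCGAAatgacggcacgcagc
IRF9 (chr14:24161187-24161225, plus strand): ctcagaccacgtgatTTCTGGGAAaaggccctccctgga
The match lay 124 bases before the start of IRF1 and 63 bases before that of IRF9. A match is a run of letters in a window, and no binding was measured.

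Levels are given in FPKM, fragments relative to transcript length and to the mapped reads of the library, as the authors deposited them, and FPKM was summed over the RefSeq accessions of a gene. The deposited 95% interval of each value stands in brackets where it is given, and covers the uncertainty of estimation within 1 library. Differences are in log2(FPKM + 1), which understates the change of low genes, and a gene counts as changed at 2-fold or more on that scale. As a second reading, 2 values are called apart where their deposited intervals do not overlap. Both readings were applied to the 11631 genes whose mean over all 4 libraries was 1 FPKM or more, among them 29 of the 39 members.

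The target of the siRNA was lower in both SAF-A libraries: HNRNPU stood at 91.2 FPKM under control siRNA and 10.4 under SAF-A siRNA at 24 h (11.4% of control), and at 84.6 and 9.24 at 48 h (10.9%). The deposited values imply 28083822 to 30701282 mapped reads in 3 libraries and 1216740 in the SAF-A 48 h library, which is 3.96% of the deepest. At that depth 1 FPKM of a 2 kb transcript is about 2.43 reads, against 56.2 to 61.4 in the others, and 10 of the 29 expressed members rest on fewer than 10 estimated reads there. Of 10 markers of retinal pigment epithelium, 4 reached 1 FPKM in each library: OTX2, MITF, KRT8 and KRT18. At 24 h (control then SAF-A) and 48 h (control then SAF-A), OTX2 was at 2.60, 2.40, 3.77 and 2.16 FPKM. In the same order MITF was at 8.90, 5.56, 9.01 and 4.23, and the deposited status of both was OK throughout. RPE65, a visual cycle enzyme that defines the tissue, was listed at 0 in all. The summed level of that list was 196, 169, 307 and 46.1 FPKM (at 24 h control then SAF-A, at 48 h control then SAF-A), and its part in the results was not tested. Most of each sum is KRT8 and KRT18, whose deposited status is FAIL in every library but SAF-A 48 h, so these sums are not a reliable measure of the cell type. Of 6 immune cell markers, 1 (CD68) reached 1 FPKM, and the T cell gene CD3E was listed at 0 in every library. In RNA from whole cultures, fewer cells that express a gene and less of its RNA per cell cannot be told apart.

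Without added interferon, the cells expressed a subset of the pathway. B2M, the light chain of MHC class I, was far above the other members at 547 to 1290 FPKM, and PSMB8, an immunoproteasome subunit, came next at 38.9 to 52.2. The RNA helicase RIGI, the kinase EIF2AK2 (PKR), STAT2, IRF3 and the effectors ISG15, IFI6, IFIT3, IFIT5, IFI35, PARP14 and IFITM3, with TAP1 and IRF9, made up the rest of the 15 members with a mean of at least 5 FPKM. The 10 members under a mean of 1 FPKM were DHX58, OAS1, OAS2, IRF7, ISG20, OASL, MX1, MX2, IFI27 and BST2. None of them passed 0.971 FPKM in the control 48 h library, and their highest value anywhere, 2.19 FPKM for ISG20 under SAF-A siRNA at 48 h, rests on 2 reads. The levels of neighbouring genes could differ widely: in the OAS cluster on chromosome 12, OAS3 was at 2.05 FPKM in the control 24 h library while OAS1 was listed at 0 and OAS2 at 0.0103, although OAS3 and OAS2 are 5.22 kb apart.

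**Figure D1:**
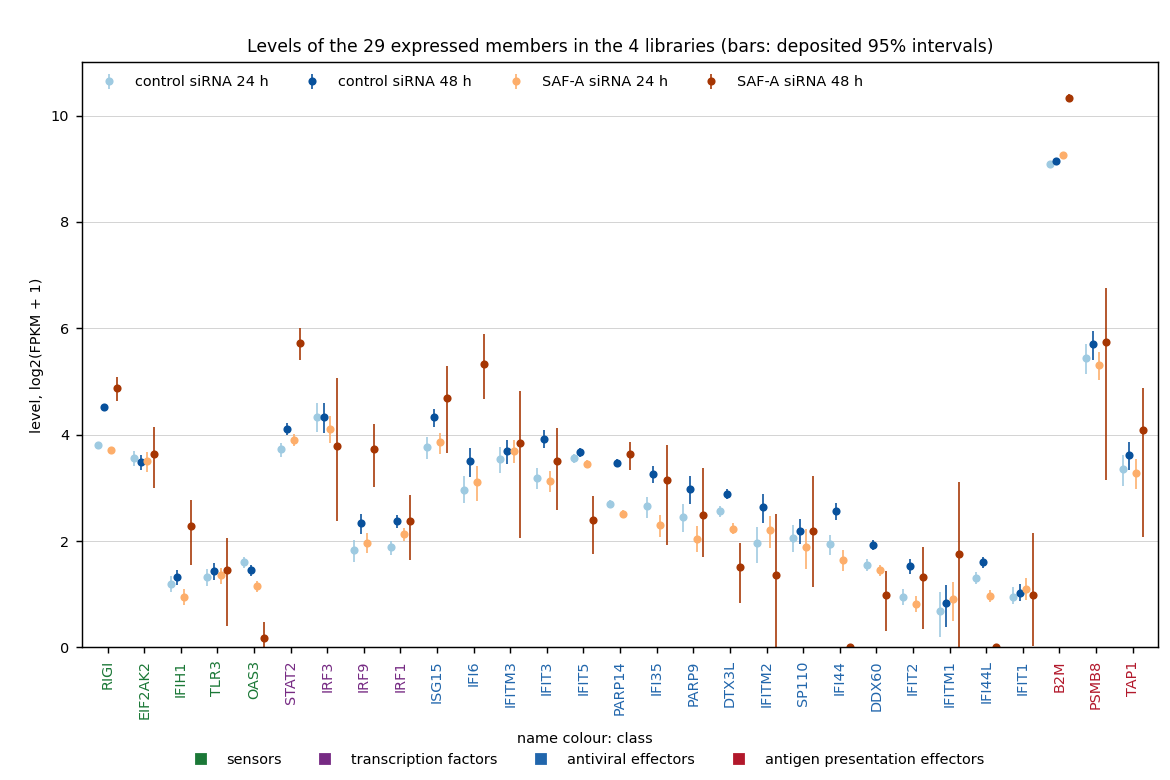
Levels of the 29 expressed members in log2(FPKM + 1), by gene and class, with 1 point per library (light blue and dark blue for control siRNA at 24 h and 48 h, light and dark orange for SAF-A siRNA) and bars for the deposited 95% intervals. In most antiviral effectors the dark blue point lies above the light blue one, while the dark orange points scatter both ways with wide bars and are at 0 for IFI44 and IFI44L.

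Under control siRNA, the expressed members were in their large majority somewhat higher at 48 h than at 24 h. Of the 29, 26 were above 0 (89.7%, against 55.8% of all genes), with a median difference of 0.32 on the log2(FPKM + 1) scale (all genes 0.03). The differences were small: 0 members reached 2-fold in either direction, where 1.79% of all genes were higher and 1.36% lower by that rule. By the deposited intervals, 15 of 29 (51.7%) were apart and higher, against 18.3% of all genes, and 0 were apart and lower, against 12.7%. Of the 26 effectors, all 20 that were expressed were above 0 and 11 of those were apart (55.0%), a share close to that of all members.

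Among the 5 expressed sensors, only RIGI had intervals apart with time under control siRNA (20.0%, against 18.3% of all genes). RIGI (chromosome 9, 32455300 to 32526322, hg19), the helicase RIG-I, which detects 5′ triphosphate RNA, was at 12.9 FPKM (12.3 to 13.6) at 24 h and 21.8 (21.0 to 22.6) at 48 h. That is a ratio of 1.69, or 0.71 in log2(FPKM + 1). EIF2AK2, which halts translation on binding double-stranded RNA, was at 10.8 and 10.2 FPKM, with overlapping intervals. IFIH1 (MDA5), which detects long double-stranded RNA, was at 1.29 and 1.49, OAS3, which makes the 2′-5′ oligoadenylates that activate RNase L, was at 2.05 and 1.73, and the endosomal receptor TLR3 stayed between 1.51 and 1.70. The median of the 5 expressed sensors was 0.11.

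Of the 4 expressed transcription factors, 3 were apart and higher at 48 h under control siRNA (75.0%, against 18.3% of all genes), with a class median of 0.44. STAT2 (chromosome 12, 56735382 to 56754037), the subunit of ISGF3 that activates transcription, was at 12.2 FPKM (11 to 13.4) and 16.2 (14.9 to 17.6). IRF9 (chromosome 14, 24630422 to 24635774), the DNA-binding subunit, was at 2.54 (2.04 to 3.03) and 4.03 (3.41 to 4.66). IRF1, an early interferon target, was also apart, within its range of 2.68 to 4.2 FPKM over the 4 libraries. IRF3, which is made constitutively and activated by phosphorylation, was at 19.2 FPKM at both times.

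All 17 expressed antiviral effectors were above 0 with time under control siRNA, with a median of 0.52, and 10 of them were apart (58.8%, against 18.3% of all genes). PARP14 (chromosome 3, 122399672 to 122449687), a mono-ADP-ribosyltransferase, differed most in log2(FPKM + 1): it was at 5.50 FPKM (5.18 to 5.83) at 24 h and 10.1 (9.70 to 10.6) at 48 h, a ratio of 1.84. IFIT3 (chromosome 10, 91087602 to 91100725), which with its relatives binds viral RNA, was at 8.13 and 14.2 FPKM, and its promoter stretch above holds 2 matches of the core. ISG15 (chromosome 1, 948847 to 949919), a ubiquitin-like modifier, was at 12.6 and 19.1, IFI35 at 5.28 and 8.59, and IFI44 at 2.83 and 4.92.

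DTX3L, a ubiquitin ligase that works with PARP9, was at 4.89 and 6.37 FPKM, IFI44L at 1.48 and 2.03, and IFITM2, which blocks virus entry at membranes, at 2.89 and 5.22, all with intervals apart. IFIT2 and DDX60 were apart as well, within ranges of 0.772 to 1.89 and 0.98 to 2.82 FPKM over the 4 libraries. IFIT2 had a plain FPKM ratio of 2.03, which is 0.58 in log2(FPKM + 1) because its level is low. IFI6 (6.82 and 10.3 FPKM) had intervals that overlapped slightly (5.53 to 8.32 against 8.23 to 12.4). IFIT5 (10.8 and 11.7) and IFITM3 (10.6 and 11.9) also overlapped, as did PARP9, SP110, IFITM1 and IFIT1, which ranged over the 4 libraries from 3.12 to 6.88, 2.71 to 3.57, 0.602 to 2.40 and 0.938 to 1.14 FPKM. IFITM1 passed the floor on the mean only through its 2.40 FPKM in the SAF-A 48 h library, which rests on 2 reads. In the cluster on chromosome 10, IFIT2 and IFIT3 were apart and IFIT1 and IFIT5, which lie 8.08 kb from each other, overlapped.

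In the antigen presentation class, TAP1, which carries peptides into the endoplasmic reticulum, was at 9.28 and 11.3 FPKM, PSMB8 at 42.4 and 51.3, and B2M at 547 and 569. Only B2M had intervals apart (537 to 557 against 559 to 580), at a ratio of 1.04, which is 33.3% of the class against 18.3% of all genes. PSMB8 and TAP1 are listed on chromosome 6 and on 7 alternative haplotype sequences, and their values are sums over all 8. Set beside the promoter letters, the 20 expressed members with the core had a median of 0.27, with 8 apart and higher. The 6 without it had a median of 0.50, with 5 apart and higher, as were 18.3% of all genes.

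**Figure D2:**
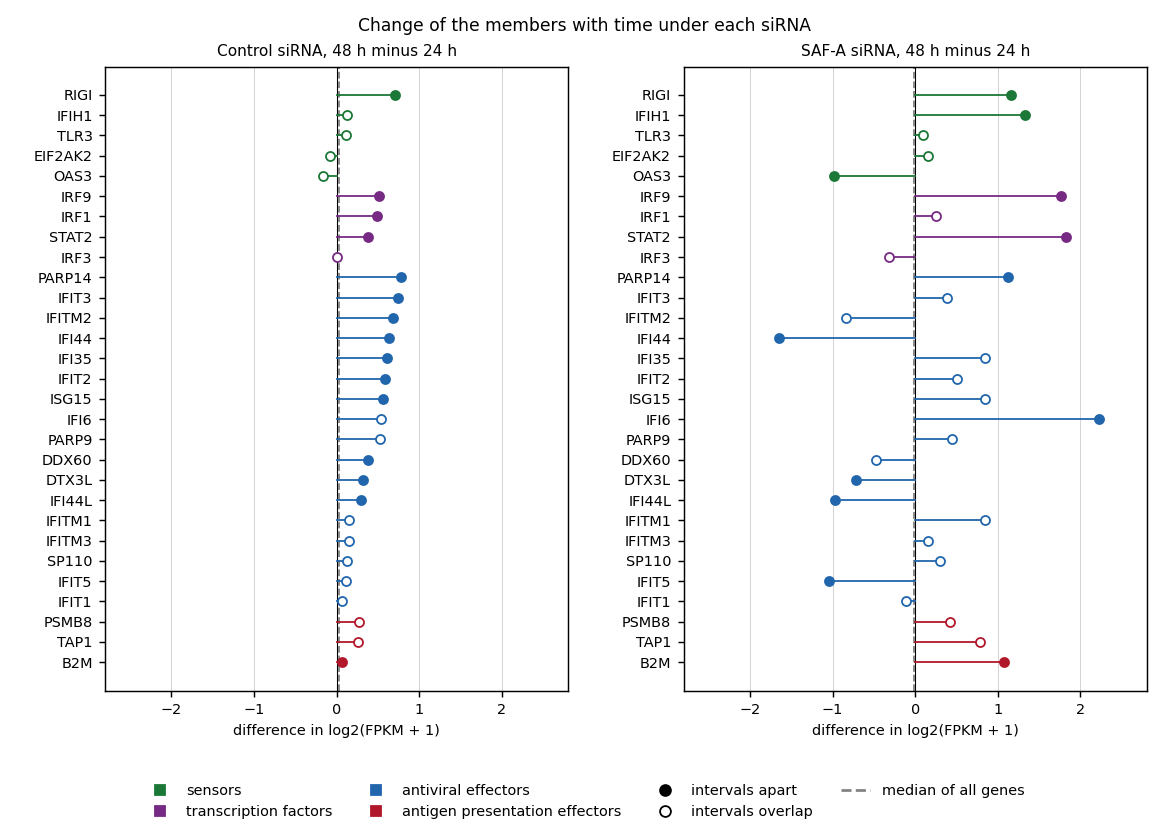
Difference in log2(FPKM + 1) between 48 h and 24 h for the 29 expressed members, under control siRNA at left and SAF-A siRNA at right; filled points have deposited 95% intervals that are apart, and the dashed line is the median of all genes. At left 26 of 29 points lie above 0 and none reaches 1, while at right points spread from -1.65 for IFI44 to 2.22 for IFI6.

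The rest of the pathway showed how far this reached. Interferon genes themselves were close to absent: of 9 listed, IFNE alone had a mean of at least 1 FPKM (1.07, 1.80, 1.16 and 1.29 FPKM, at 24 h control then SAF-A and at 48 h control then SAF-A), IFNB1 was listed at 0.056 FPKM in the control 24 h library and at 0 in the others, and IFNG, IFNL2 and IFNL3 were listed at 0 throughout. IFNK, IFNW1 and IFNL1 were at most 0.0534 FPKM. IFNA1 was at 0.45, 0.445, 0.212 and 0 FPKM in the same order. Of the 9 expressed receptor, kinase and STAT genes, 1 (11.1%, against 18.3% of all genes) was apart and higher with time under control siRNA, JAK1, at 20.1 and 26.5 FPKM.

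Among 27 expressed interferon-stimulated genes outside the 39, 23 were above 0 with time under control siRNA, with a median of 0.19. Of these 27, 10 were apart and higher (37.0%, against 18.3% of all genes) and 1 was apart and lower (3.70%, against 12.7%), LAP3. Of 8 expressed adaptors and kinases of nucleic acid sensing, 2 were apart and higher (25%, against the same 18.3%), TBK1, the kinase of IRF3, and TRIM25, a ubiquitin ligase of RIG-I. Of 6 expressed negative regulators, 1 was apart and higher, TRIM21 (16.7%), and 1 was apart and lower (16.7%, against 12.7%), SOCS3, an inhibitor of JAK kinases, at 16.3 and 10.0 FPKM.

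**Figure D3:**
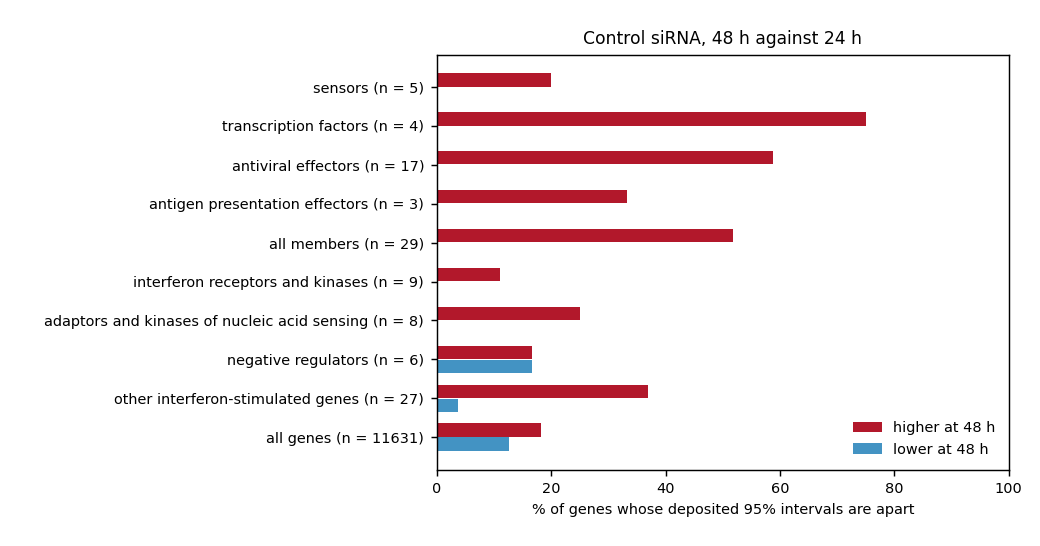
Percent of expressed genes whose deposited 95% intervals are apart between control siRNA at 48 h and at 24 h, higher at 48 h in red and lower in blue, for the member classes, 4 other pathway lists and all genes. The bar for all members is at 51.7% and that for all genes at 18.3%; classes of 3 to 9 genes move in steps of 1 gene.

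At 24 h the members differed little between SAF-A and control siRNA. Of the 29, 11 were above 0 (37.9%, all genes 36.5%), the median was -0.09 (all genes -0.06), and 0 reached 2-fold, where 1.83% of all genes were higher and 1.25% lower. By intervals, 1 member was apart and higher (3.45%, against 8.98% of all genes) and 4 were apart and lower (13.8%, against 17.5%), so the shares were not above those of all genes. Rescaled to a fixed total over all genes, 6 members were above 0 and the median of all genes was -0.22. The 4 lower members were OAS3, at 2.05 FPKM (1.83 to 2.26) under control and 1.23 (1.07 to 1.39) under SAF-A siRNA, IFI44L (1.48 and 0.959), PARP14 (5.50 and 4.69) and DTX3L (4.89 and 3.70). The 1 higher member was B2M, at 547 and 615 FPKM, and its sign turned (0.17 to -0.02) when FPKM was rescaled to a fixed total over all genes.

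The other well expressed members stayed close to control at 24 h. RIGI was at 12.9 FPKM under control and 12.1 under SAF-A siRNA, EIF2AK2 at 10.8 and 10.3, IFIH1 at 1.29 and 0.94, STAT2 at 12.2 and 14, IRF9 at 2.54 and 2.92, and IRF3 at 19.2 and 16.2. Among the effectors, ISG15 was at 12.6 and 13.5, IFI6 at 6.82 and 7.61, IFIT3 at 8.13 and 7.78, IFIT5 at 10.8 and 9.89, IFI35 at 5.28 and 3.92, IFI44 at 2.83 and 2.14, IFITM2 at 2.89 and 3.60, and IFITM3 at 10.6 and 12. PSMB8 was at 42.4 and 38.9, and TAP1 at 9.28 and 8.74. All of these intervals overlapped, and an HNRNPU level at 11.4% of control was not accompanied by a 2-fold difference in any expressed member.

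Among the receptor and kinase genes, IFNAR1 and TYK2 were apart and lower at 24 h, as were 17.5% of all genes. IFNAR1, a chain of the type I interferon receptor, was at 7.29 FPKM under control and 4.14 under SAF-A siRNA, and TYK2 at 12.8 and 11.1. MAVS, the mitochondrial adaptor of RIG-I and MDA5, TRAF3 and TRIM25 were also apart and lower, 3 of 8 in their list (37.5%). Among the other interferon-stimulated genes, 1 of 27 was apart and higher (3.70%, against 8.98% of all genes), the GTPase GBP1, and 2 were apart and lower (7.41%, against 17.5%), ZC3HAV1 and SHFL.

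At 48 h the members spread in both directions, about as widely as other genes. Of the 29, 4 were at least 2-fold higher under SAF-A siRNA (13.8%, against 14.2% of all genes) and 6 at least 2-fold lower (20.7%, against 20.1%). By intervals, 6 were apart and higher (20.7%, against 21.9%) and 6 apart and lower (20.7%, against 26.6%). The number above 0 was 16 as deposited (55.2%, all genes 44.6%), with a median of 0.01 (all genes -0.12). It was 9 or 12 when FPKM was rescaled to a fixed total over genes of at least 300 nt or over all genes. Those rescalings moved the median of all genes to -0.35 or -0.15 and that of the members to -0.21 or -0.02. As a set, the members therefore did not stand apart from other genes in the counts at 2-fold or by intervals.

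The higher members at 48 h were led by 2 subunits of ISGF3 and by IFI6. STAT2 was at 16.2 FPKM (14.9 to 17.6) under control and 52.1 (41.3 to 63.0) under SAF-A siRNA. Its 276 estimated reads in the SAF-A library stand against 85.9 at the control level, a ratio of 3.21 (exact Poisson 95% interval 2.84 to 3.61, counting error only). Both STAT2 accessions were higher, NM_005419 at 13.8 and 37.1 FPKM and NM_198332 at 2.44 and 15.1.

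IRF9 was at 4.03 FPKM (3.41 to 4.66) under control and 12.3 (7.04 to 17.5) under SAF-A siRNA, with 22 reads against 7.25 at the control level, a ratio of 3.03 (1.90 to 4.59). IRF3 was at 19.2 and 12.8 FPKM, a ratio of 0.664, with overlapping deposited intervals, while its 17 reads against 31.9 gave a ratio of 0.533 (0.310 to 0.853). The read ratio also depends on the lengths of the accessions that hold the FPKM. An IRF3 accession of 1235 nt was at 10.6 FPKM under SAF-A siRNA and near 0 under control, so that Poisson interval is not one of the level. IRF3 shares 392 exonic bases with BCL2L12 on the other strand. IRF1 was at most 4.2 FPKM and overlapped too.

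IFI6 (chromosome 1, 27992572 to 27998724), a small mitochondrial and endoplasmic reticulum protein that protects cells from apoptosis, showed the largest difference above 0, 1.83 in log2(FPKM + 1). It was at 10.3 FPKM (8.23 to 12.4) under control and 39 (24.5 to 58.6) under SAF-A siRNA, from 30 reads against 7.96 at the control level, a ratio of 3.77 (2.54 to 5.38). B2M (chromosome 15, 45003685 to 45010357) was at 569 (559 to 580) and 1290 FPKM (1220 to 1360), with 1235 reads behind the second value. Its difference was 1.18 as deposited and 0.94 when rescaled over genes of at least 300 nt, just under 2-fold.

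The helicases RIGI and IFIH1 were above control as well, though not by 2-fold on the log2(FPKM + 1) scale, while the related helicase DHX58, under a mean of 1 FPKM, was at 0.971 and 0.681 with overlapping intervals. RIGI was at 21.8 FPKM (21.0 to 22.6) under control and 28.3 (23.8 to 32.9) under SAF-A siRNA, from 157 reads against 121, a ratio of 1.30 (1.10 to 1.52). Its difference was 0.36 as deposited and 0.14 when rescaled over genes of at least 300 nt. IFIH1 (chromosome 2, 163123589 to 163175218) was at 1.49 (1.25 to 1.74) and 3.87 (1.94 to 5.81), from 16 reads against 6.18, a ratio of 2.59 (1.48 to 4.21). EIF2AK2 was at 10.2 and 11.5 FPKM, and its intervals overlapped.

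Of the 6 members at least 2-fold lower at 48 h, 5 were antiviral effectors, a class that holds 17 of the 29 expressed members. That is 29.4% of the class, against 20.1% of all genes. By intervals, 5 of the 17 were apart and lower (29.4%, against 26.6%). IFI44 (chromosome 1, 79115477 to 79129763) was at 4.92 FPKM under control and listed at 0 under SAF-A siRNA, where 9.13 reads would stand at the control level. Set against a floor of 3 reads in that library, it was 3.04-fold lower. The Poisson interval used for other genes allows a smaller difference, with an upper limit of 0.404 for the ratio. Its neighbour IFI44L (79086088 to 79111830), 3.65 kb away, was at 2.03 FPKM and listed at 0, with 14 reads at the control level. By the same floor IFI44L was 4.68-fold lower, and its Poisson interval also allows a smaller difference, with an upper limit of 0.263 for the ratio. Both genes are of unknown biochemical function and are commonly induced by type I interferon.

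OAS3 (chromosome 12, 113376249 to 113411054) was at 1.73 FPKM under control and 0.128 under SAF-A siRNA at 48 h, from 1 read against 13.5, a ratio of 0.0738 (0.00187 to 0.411). It was thus lower under SAF-A siRNA at both times. DTX3L (chromosome 3, 122283185 to 122294049) was at 6.37 FPKM and 1.85, from 13 reads against 43.2, a ratio of 0.301 (0.160 to 0.515). DTX3L and PARP9 overlap by 185 exonic bases on opposite strands, and whether the authors' counting used strand is not given in the sources used here.

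IFIT5 (chromosome 10, 91174325 to 91180759) was at 11.7 FPKM (11 to 12.4) under control and 4.29 (2.37 to 6.21) under SAF-A siRNA, from 20 reads against 54.6, a ratio of 0.366 (0.224 to 0.566). IFITM2 was at 5.22 and 1.56 FPKM, but the second value is 1 read against 3.36 at the control level, and the Poisson interval of the ratio (0.00753 to 1.66) spans 1. DDX60 was apart and lower without reaching 2-fold on the log2(FPKM + 1) scale (-0.95), from 7 reads against 20.2, a plain ratio of 0.347 (0.140 to 0.715).

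Several canonical effectors at 48 h had deposited intervals that overlapped those of control. ISG15 was at 19.1 FPKM under control and 24.9 under SAF-A siRNA, from 14 reads against 10.8, a ratio of 1.30 (0.708 to 2.17). IFIT3 was at 14.2 and 10.4 FPKM, IFI35 at 8.59 and 7.86, PARP14 at 10.1 and 11.4, and IFITM3 at 11.9 and 13.4. PSMB8 was at 51.3 and 52.2. TAP1 was at 11.3 and 15.9, and its 53 reads against 37.8 gave a ratio of 1.40 with a Poisson interval above 1 (1.05 to 1.83), although its deposited intervals overlapped. The deposited intervals of the SAF-A library were wide: that of IFIT3 ran from 5.03 to 16.5 FPKM and that of PSMB8 from 7.89 to 107.

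**Figure D4:**
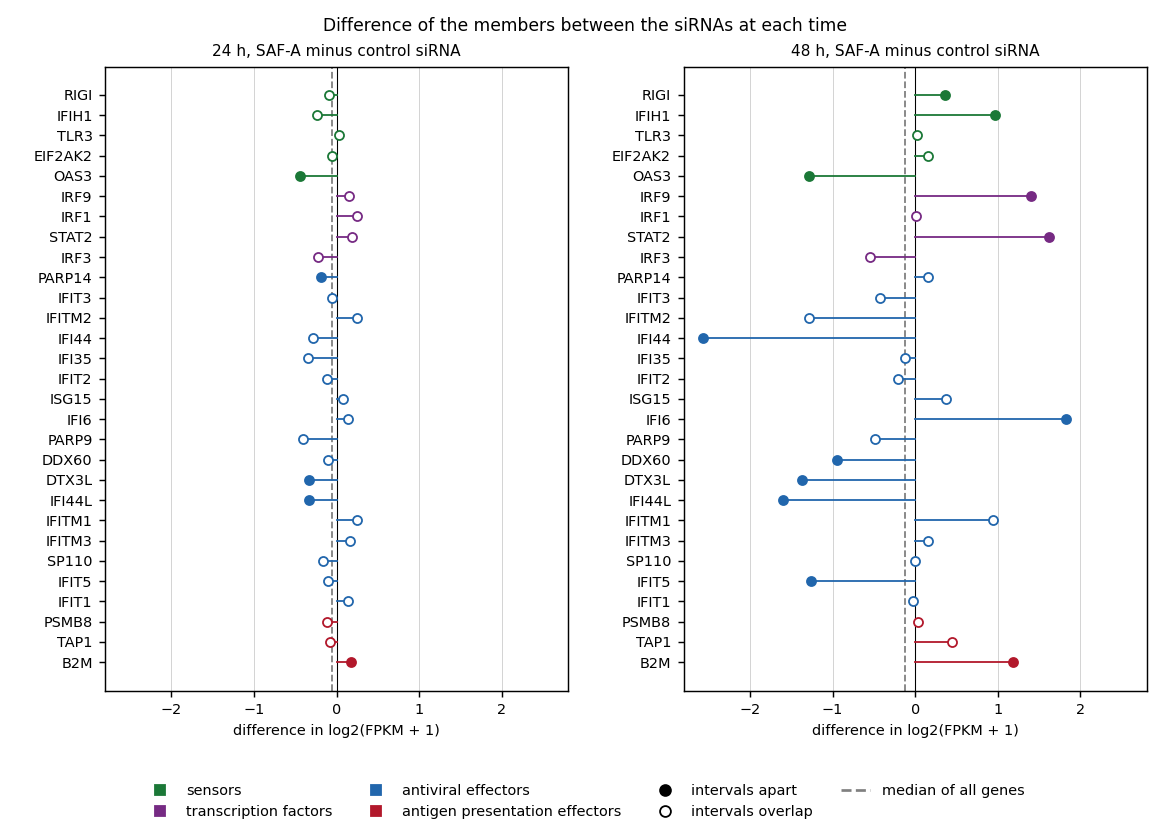
Difference in log2(FPKM + 1) between SAF-A and control siRNA at 24 h (left) and 48 h (right) for the 29 expressed members; filled points have deposited 95% intervals that are apart, and the dashed line is the median of all genes. At 24 h the points lie between -0.45 and 0.25, and at 48 h between -2.57 for IFI44 and 1.83 for IFI6.

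**Figure D5:**
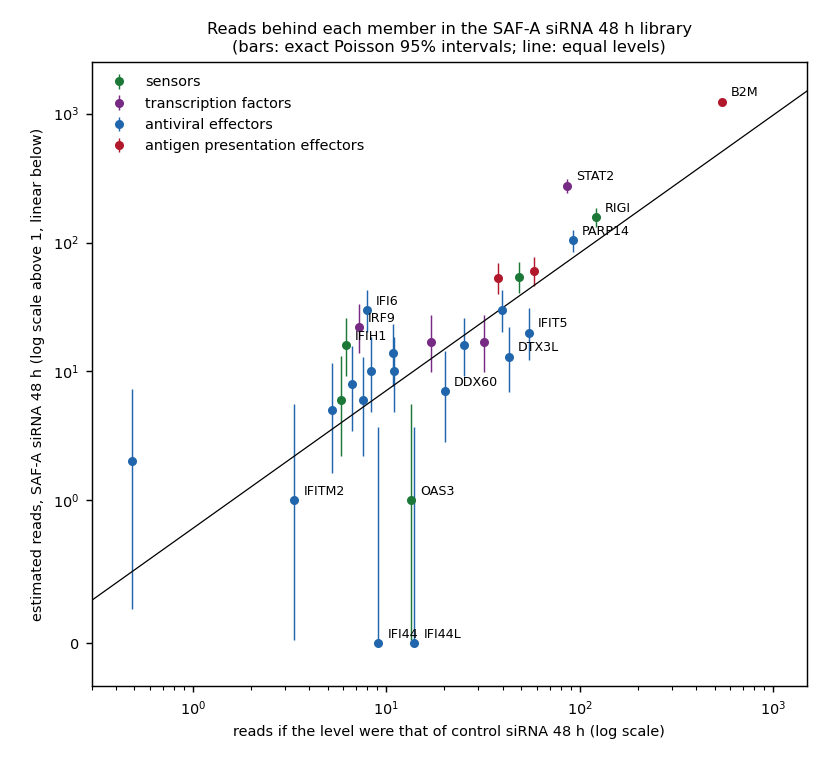
Estimated reads of each expressed member in the SAF-A 48 h library (vertical axis, log scale above 1 and linear below) against the reads it would have at its control 48 h level (horizontal axis, log scale), with exact Poisson 95% intervals and a line of equal levels. STAT2, IFI6, IRF9, IFIH1, B2M, RIGI and TAP1 lie above the line with bars that do not reach it, and IFI44 and IFI44L lie at 0 where 9.13 and 14 reads would stand.

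The components upstream of ISGF3 also went both ways at 48 h. JAK1 was at 26.5 FPKM under control and 79.3 under SAF-A siRNA, from 468 reads. The receptor genes IFNGR1 (7.80 and 18 FPKM) and IL10RB (7.03 and 17.5) were at least 2-fold higher, and IFNAR1 (7.40 and 2.09) was at least 2-fold lower, which makes 3 of 9 higher (33.3%, against 14.2% of all genes) and 1 lower (11.1%, against 20.1%) in that list. The differences of IFNGR1 and TBK1 were 1.11 and 1.17 as deposited and 0.94 and 0.96 when rescaled over genes of at least 300 nt. IFNAR2 (1.53 to 2.1 FPKM over the 4 libraries), IFNGR2 (10.1 to 12.6) and JAK2 (2.63 to 3.88) had overlapping intervals, and IFNLR1 was at most 0.194 FPKM. Of the 8 expressed adaptors and kinases, STING1, the adaptor of the DNA sensor cGAS, was at 5.93 and 17.5 FPKM, TBK1 at 22.5 and 51.9, and MAVS at 13.5 and 5.77. CGAS itself was listed at 0 in all 4 libraries.

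Of the 27 other expressed interferon-stimulated genes, 4 were at least 2-fold higher at 48 h (14.8%, against 14.2% of all genes) and 2 lower (7.41%, against 20.1%), so the higher share was that of all genes. The higher ones were HERC5, the ligase that attaches ISG15 (3.5 and 17.1 FPKM), the GTPase GBP2 (0.818 and 8.23), LGALS3BP (8.61 and 20.4, or 0.98 in log2 when rescaled over genes of at least 300 nt) and SP100, a nuclear body protein (40.6 and 152). GBP2 was at 0.434 and 0.556 FPKM at 24 h (control then SAF-A). It therefore passed the floor on the mean only through the SAF-A 48 h value compared here. ZC3HAV1, the antiviral protein ZAP, was lower (7.12 and 1.93). PSMB9 was listed at 0 against 2.86 FPKM, where fewer than 3 reads would stand at the control level, so no fold is given. SOCS3 was at 10.0 and 3.57 FPKM.

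With time under SAF-A siRNA, 20 of the 29 members were above 0 (69.0%, all genes 47.7%), with a median of 0.38 (all genes -0.02). This comparison shares its 24 h and 48 h SAF-A libraries with the comparisons of siRNAs. At least 2-fold higher at 48 h were 7 members (24.1%, against 15.1% of all genes), which were RIGI, IFIH1, STAT2, IRF9, IFI6, PARP14 and B2M. At least 2-fold lower were 2 (6.90%, against 17.8%), IFIT5 and IFI44. The IFI44 value is 0 reads against 3.97 at the SAF-A 24 h level, with an upper Poisson limit of 0.929 for the ratio. By intervals 7 were apart and higher (24.1%, against 23.5%) and 5 apart and lower (17.2%, against 23.8%), so by that reading the members matched other genes. B2M and IFIT5 lay near the 2-fold line, at 1.07 and -1.04 as deposited and at 0.86 and -0.84 under one or the other rescaling. Rescaled over genes of at least 300 nt, 5 members were at least 2-fold higher instead of 7, without PARP14 and B2M. Rescaled over all genes, 10 were.

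By intervals, 5 members were apart and higher with time under both siRNAs: RIGI, STAT2, IRF9, PARP14 and B2M. Of all genes, 18.3% were so under control siRNA and 23.5% under SAF-A siRNA. The share of all genes that were so under both was not counted. RIGI was at 12.9 and 21.8 FPKM under control and at 12.1 and 28.3 under SAF-A siRNA, and PARP14 was at 5.50 and 10.1 under control and at 4.69 and 11.4 under SAF-A siRNA. STAT2 was at 12.2 and 16.2 FPKM under control and 14 and 52.1 under SAF-A siRNA, and IRF9 at 2.54 and 4.03 and at 2.92 and 12.3. B2M was at 547 and 569 under control and 615 and 1290 under SAF-A siRNA. Under SAF-A siRNA, IFI6 was at 7.61 and 39 FPKM and IFIH1 at 0.94 and 3.87, and outside the 39 genes HERC6 was at 1.49 and 5.13 and HLA-C at 121 and 306. Of the 29 members, 19 were above 0 with time under both siRNAs, a count that was not made for all genes. The difference between the 2 changes with time was not tested, since each siRNA has 1 library at each time.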

How the data were processed

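Total RNA of RPE1 cells was depleted of ribosomal RNA and read as 50-base single-end reads, per the labels' protocols. The authors deposited FPKM values with 95% bounds and a status for each RefSeq accession, in the format of Cufflinks, per the file headers. The submitters' processing notes name TopHat2 2.0.10, Bowtie2 2.1.0, Cufflinks 2.2.1, Cuffdiff and hg19, with no role or order. The use of strand and of reads that map to several places is not given in the sources used here. Each table has 47338 rows, and 97.3% of distinct accessions matched a symbol of RefSeq (GRCh38.p14, names only). FPKM and bounds were summed per symbol, and summed bounds are wider than those of a sum; 15 members have several accessions. Promoter windows come from RefSeq, GRCh38.p14. The authors also deposited coverage (a signal per transcript), and coverage divided by FPKM gave the mapped reads. Estimated reads are FPKM multiplied by effective length (fragments of 200 ± 80 nt) and mapped reads, they carry no molecular identifiers, and their exact Poisson 95% intervals and the floor of 3 reads for a listed 0 cover counting error only.

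The members and lists were chosen with earlier results of these data known. Members whose mean reached 5 FPKM, and those with 1 to 5 FPKM that changed 2-fold in any comparison, are given with their levels; the others by name and range. Other genes were named where their mean reached 1 FPKM with a 2-fold change and intervals apart, or where they were ligands, receptors, kinases or STAT genes. RPE65, OTX2, MITF, CD68, CD3E, IFNA1, CGAS, LAP3, TRIM21, TRIM25, TRAF3, GBP1 and SHFL fall outside that rule and were named after their values were seen, as was PSMB9. The result of 1 gene that this rule names is not reported here. Alternatives were a pseudocount of 0.1 FPKM, no floor, a mean of at least 5 FPKM, centring, rescaling to a fixed total (TPM) over all genes or those of at least 300 nt, a 1.5-fold threshold and narrower summed bounds. Calls were run on simulated Poisson counts, without variation between libraries and with intervals made from the counts instead of the deposited bounds. That run cannot show how often calls on the deposited values are right. Python 3.11.15, pandas 2.3.3, numpy 2.4.6 and scipy 1.17.1 were used.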

Additional observations from a re-analysis of the deposited data

Results flagged for a closer look

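The changes with time of 3 members went opposite ways under the 2 siRNAs, with deposited intervals apart in each. For IFI44 the difference between 48 h and 24 h in log2(FPKM + 1) was 0.63 under control siRNA and -1.65 under SAF-A siRNA, for IFI44L it was 0.29 and -0.97, and for DTX3L 0.32 and -0.72. With 1 library per group the difference between the 2 changes was not tested. The SAF-A 48 h value is 0 reads for IFI44 and IFI44L and 13 reads for DTX3L, against 3.97, 6.62 and 25.1 at the SAF-A 24 h level. The upper Poisson limits of these ratios were 0.929, 0.557 and 0.887. A listed 0 has deposited bounds of 0, so its interval is apart from any whose lower bound is above 0. How many of all genes meet the same rule was not counted.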

How the results depend on the processing

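Of 116 values under alternatives, 97 stayed within 1.5 times the main count or 0.1 of the main median, 17 moved and 2 reversed. For SAF-A against control siRNA at 48 h, the median of the members was 0.01 as deposited, -0.02 when rescaled to TPM over all genes and -0.21 over genes of at least 300 nt (both reversed), and 0.16 with a mean of at least 5 FPKM, where 1 of 15 members was lower instead of 6 of 29. At 24 h that median was -0.23 when rescaled over all genes, and with narrower summed bounds 2 members were apart and higher instead of 1. With time under control siRNA the median was 0.19 with no floor, and 6 members were higher at a 1.5-fold threshold. With time under SAF-A siRNA the median was 0.16 with no floor, 0.84 with a mean of at least 5 FPKM, 0.59 rescaled over all genes and 0.2 over genes of at least 300 nt. In that comparison 2 members were lower as deposited, 5 with a pseudocount of 0.1 FPKM, 1 with a mean of at least 5 FPKM, 4 after centring, 1 and 6 after the 2 rescalings, and 6 at 1.5-fold, where 11 were higher. A floor of 3 reads for genes listed at 0 was added after seeing the data and changed no count. The cause of these shifts was not tested. No paired analysis was possible because each group is 1 library, and no library could be left out for the same reason. The SAF-A 48 h library limits what its comparisons can show: 7 of the 29 members have at least 50 reads there.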
